A study of Mus musculus with 11 samples.

Results

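Pigr, Lcn2, Dmbt1, Wfdc2, Slpi, Muc1 and Tff3 are 7 genes whose products defend moist epithelial surfaces, and they are described here in cells of the mouse bile duct during and after injury. They were picked by gene symbol from a table of 43346 genes, and all 7 were present and passed the filter on low values. The RNA is from liver cells selected on 2 successive columns with magnetic beads against EpCAM, an epithelial surface protein, and the labels call them cholangiocytes, the lining cells of the bile ducts. The 11 libraries came from wild-type male C57BL/6 mice aged 14 to 16 weeks. The 4 Control libraries came from mice on chow, and the 4 DDC libraries from mice kept for 10 days on a diet with DDC, a porphyrin-raising compound used to injure bile ducts. The 3 R15 libraries came from mice that went back to chow for 15 days after 10 days of DDC diet. No sample was left out or imputed. The labels number the libraries but do not say outright that each came from its own mouse, so the p-values measure the spread between these libraries.

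Bile ducts carry secretory IgA, mucus and antimicrobial proteins into bile, as other mucous surfaces do into their secretions. The receptor encoded by Pigr takes up polymeric IgA on the basal side of an epithelial cell and releases it on the other side, bound to a piece of itself. Lcn2 encodes lipocalin 2, which withholds iron from bacteria by binding their siderophores. Slpi encodes an inhibitor of neutrophil elastase and Wfdc2 a second secreted protein with the same whey acidic protein (WAP) fold. Dmbt1 encodes a large scavenger protein that clumps bacteria, Muc1 a mucin anchored in the cell membrane, and Tff3 a trefoil peptide that travels with mucus.

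Values are FPKM as the authors deposited them, that is reads scaled by gene length and library total, so levels of different genes can be set side by side. Whole reads recovered from the values summed to between 49339240 and 72929107 per library, and an FPKM near 1 rested on a median of 122.5 reads. Fold changes and tests are on log2(FPKM + 1) with limma, 11 libraries in 1 fit, and a change was called at a Benjamini-Hochberg adjusted p under 0.05 over 15264 genes. Each log2 fold change is followed by its standard error.

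The markers of cholangiocytes were high in all groups, with Epcam between 259 and 431 FPKM, Krt19 between 237 and 667 FPKM and Spp1 between 6491 and 9773 FPKM. Some libraries also held transcripts of other organs. Summed over 17 genes of pancreatic acinar cells, mostly for digestive enzymes, Control 1 had 9171 FPKM, Control 2 had 2429 and Control 3 had 1100. DDC 1 had 1154 and R15 3 had 1504, while the other 6 libraries had at most 15.2. Summed over 7 mucous genes of the stomach, it was 11252 FPKM in Control 3 and between 67.3 and 161 in the other 10. Tff2, a trefoil gene of that list, stood at 6346 FPKM in Control 3. The marker genes were chosen with earlier results of these data known.

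**Figure D1:**
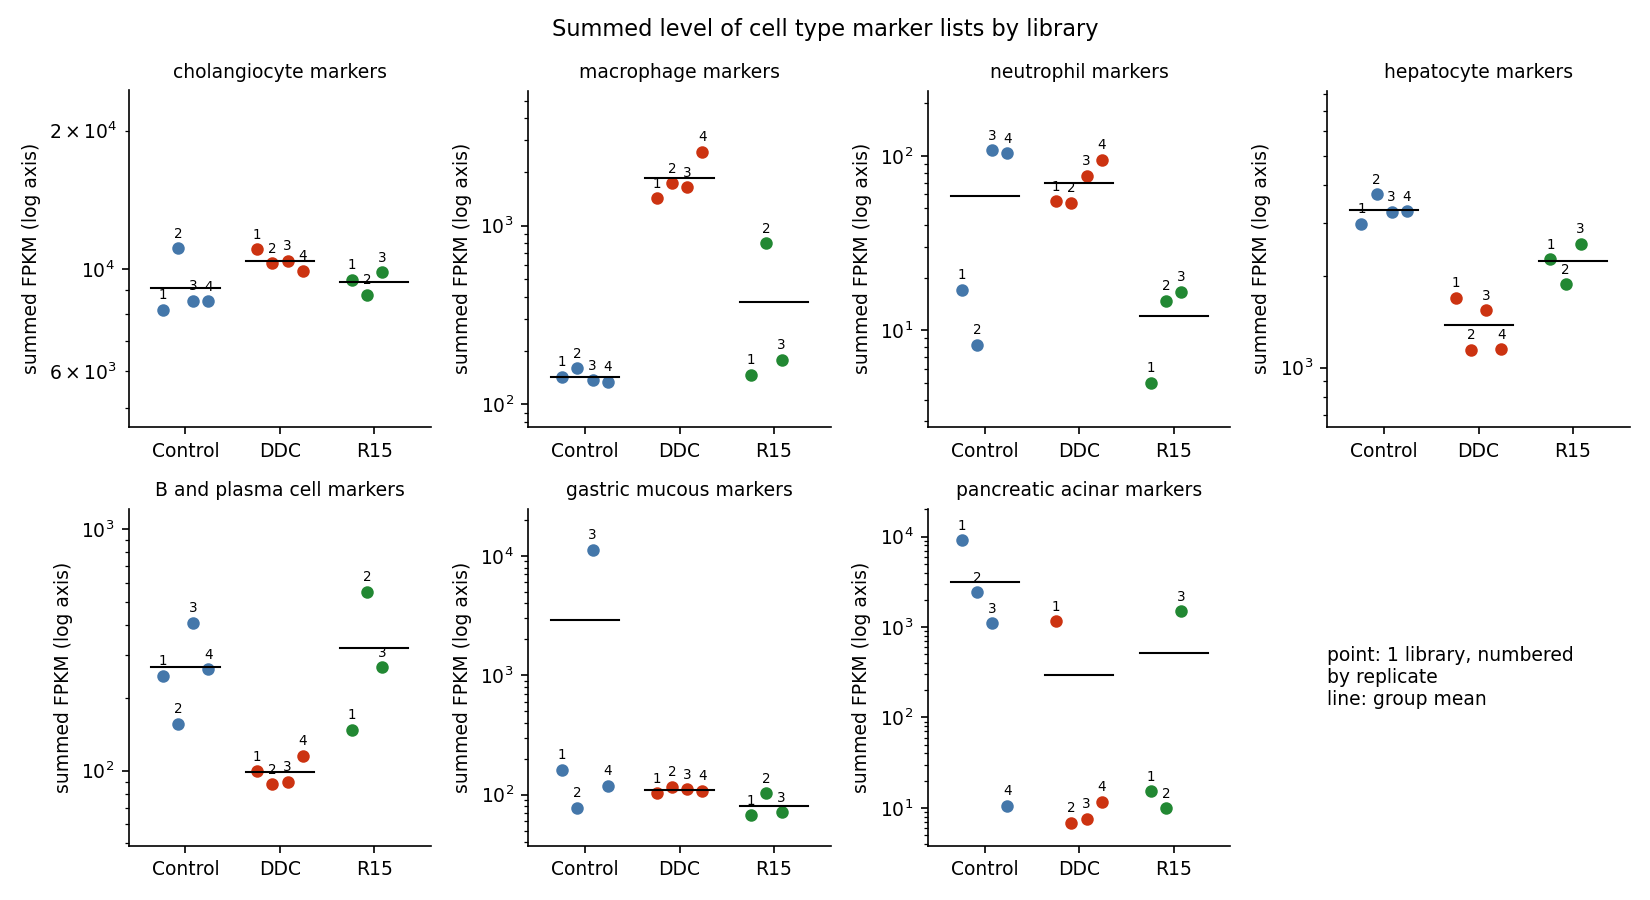
Summed FPKM (log axis) of 7 lists of cell type markers in each library, with points numbered by replicate and a line at the group mean. Macrophage markers lay between 1428 and 2594 in DDC and between 134 and 160 in Control, R15 2 stood at 799, and Control 3 stood at 11252 for gastric mucous genes.

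Sequence upstream of the start sites is shown for Lcn2 and Slpi, the 2 members with the largest rises under the diet, and at the start of Pigr, the member with the largest fall. RefSeq windows of GRCm38.p6, the assembly behind mm10, run from 250 bases before to 50 after each start, and 5 of the 7 members had a window. The RefSeq starts were 32387739 for Lcn2 and 164356507 for Slpi. Their gene models begin further upstream, at 32388252 and 164389095 on the minus strand, so these 2 windows lie inside the gene models. Capitals mark every match to the motifs CCAAT (NF-Y box), TTGCNNAA (C/EBP), TTCNNNGAA (STAT), TGANTCA (AP-1), GTTAAT (HNF1) and the kappaB motif, searched on both strands. The first sequence is chr2:32387740-32387989 and the second chr2:164356508-164356757, both read on the minus strand, and the third is chr1:130826704-130826733 on the plus strand.
Lcn2: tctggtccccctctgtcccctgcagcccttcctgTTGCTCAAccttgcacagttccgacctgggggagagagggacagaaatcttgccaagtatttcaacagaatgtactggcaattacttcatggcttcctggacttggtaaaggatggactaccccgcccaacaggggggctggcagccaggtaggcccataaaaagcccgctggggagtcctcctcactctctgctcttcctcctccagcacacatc
Slpi: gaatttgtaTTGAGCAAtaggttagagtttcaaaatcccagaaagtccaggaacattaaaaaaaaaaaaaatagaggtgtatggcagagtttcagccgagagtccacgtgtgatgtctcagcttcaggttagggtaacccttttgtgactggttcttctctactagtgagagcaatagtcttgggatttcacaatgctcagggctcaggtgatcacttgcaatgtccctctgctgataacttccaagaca
Pigr: aatagtcaccagtagtgccTTCCTGGAAgc

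The Lcn2 window held a C/EBP match at -216 to -209 from the start site, and the Slpi window held one at -241 to -234, on the other strand. Of all 32851 promoter windows, 10.8% held a C/EBP match. The Pigr window held a STAT match at 39 to 47 after the start, a motif found in 8.30% of windows. Muc1 had 1 CCAAT match, at -156 to -152, a motif found in 37.4% of windows, and the Wfdc2 windows had no match to any of the 6 motifs. These are matches of letters and were not tested against the expression values.

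Pigr, the IgA receptor gene (ENSMUSG00000026417; mm10 chromosome 1, 130826684 to 130852249, plus strand), was one of the most abundant transcripts on chow, at place 72 of 15264 genes by mean level. It stood at 442, 234, 446 and 430 FPKM in Control 1 to 4, at 33.0, 17.9, 32.6 and 106 FPKM in DDC 1 to 4, and at 65.2, 64.7 and 88.0 FPKM in R15 1 to 3. Every DDC and every R15 library lay below every Control library, while the R15 libraries fell inside the range of DDC. Group means were 388 ± 103 (SD, n = 4), 47.4 ± 39.8 (SD, n = 4) and 72.6 ± 13.3 FPKM (SD, n = 3). The ratio of means was 8.18 times lower in DDC than in Control, with a log2 fold change of -3.27 ± 0.45 (limma adjusted p = 1.2e-04). After 15 days of recovery Pigr was still 5.34 times lower than in Control, at -2.37 ± 0.49 (limma adjusted p = 0.018). Its call there was lost without R15 1 (adjusted p = 0.059) or R15 2 (adjusted p = 0.055), and with the 5 libraries with pancreatic transcripts left out, when 1 Control library remained (-2.71, adjusted p = 0.33). R15 did not differ from DDC past the threshold, at 0.90 ± 0.49 (limma adjusted p = 0.13; 95% interval from -0.18 to 1.99). Without DDC 4, the DDC library with the highest Pigr, that difference was 1.39 and passed (adjusted p = 0.0038), and with the replicate number as a block it was 1.18 and passed (adjusted p = 0.023).

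In bulk RNA, fewer cells of a type and less RNA per cell cannot be told apart, for Pigr and for every gene below. Cholangiocyte markers, mostly Spp1, summed to between 8170 and 11114 FPKM in Control and between 9922 and 11051 FPKM in DDC. These sums overlapped while Pigr did not. Hepatocyte markers, mostly the albumin gene Alb, summed to 2984 to 3723 FPKM in Control, 1145 to 1698 in DDC and 1880 to 2564 in R15. Of those 12 markers, 4 were higher and 4 lower in DDC than in Control. The part of hepatocytes in the Pigr values was not tested.

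Genes of the cargo of that receptor, which plasma cells make, fell under the diet too but came back. Igha, the constant chain of IgA, stood at 98.5, 50.2, 234 and 129 FPKM in Control 1 to 4, at 20.01, 9.44, 8.34 and 16.7 in DDC 1 to 4, and at 55.9, 290 and 141 in R15 1 to 3. No DDC library overlapped the other groups, and R15 covered much of the range of Control. The log2 fold change of Igha was -3.02 ± 0.56 in DDC against Control (limma adjusted p = 8.4e-04), 3.27 ± 0.60 in R15 against DDC (limma adjusted p = 9.8e-04) and 0.25 ± 0.60 in R15 against Control (limma adjusted p = 0.81). Jchain, the joining chain that makes IgA polymeric, went the same way, at -2.13 ± 0.45 and then 2.45 ± 0.48 (limma adjusted p = 0.0018 and 0.0015). Its first call was lost with the 5 libraries with pancreatic transcripts left out (adjusted p = 0.12). Markers of B and plasma cells as a list summed to between 88.1 and 115 FPKM in DDC, between 156 and 409 in Control and between 148 and 550 in R15, and their part in these values was not tested. In R15 2, the library with the highest Igha and Jchain, Pigr stood at 64.7 FPKM, close to the 65.2 of R15 1, which had the lowest Igha and Jchain of its group.

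**Figure D2:**
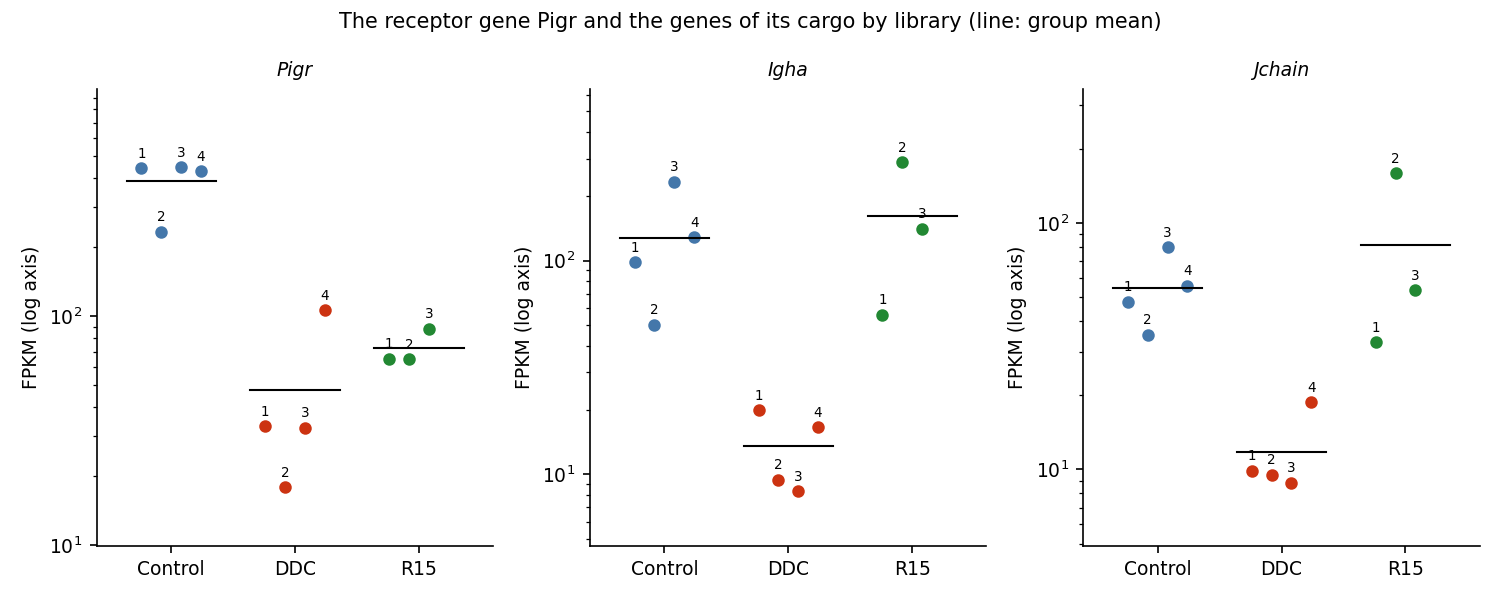
FPKM (log axis) of Pigr, Igha and Jchain in each library, with points numbered by replicate and a line at the group mean. The 3 R15 libraries lie below all Control libraries for Pigr at 64.7 to 88.0, while for Igha they reach 290, above the highest Control value of 234.

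The wider lists are read against all 15264 genes tested, of which 65.4% were called in DDC against Control, 33.5% higher and 31.9% lower. Of 13 tested genes of IgA and IgG transport, 8 were lower and 3 higher in DDC than in Control, and the list median was -0.37 against 0.00 for all genes. Fcgrt, the receptor that carries IgG across epithelia, had a mean of 74.6 ± 15.3 FPKM on chow and 48.2 ± 2.10 FPKM on the diet (SD, n = 4 each) and fell by 0.60 on the log2 scale (limma adjusted p = 0.0016). The exocyst gene Exoc4 rose by 0.29 ± 0.04. In R15 against DDC 5 of the 13 were higher and 3 lower, 61.5% called beside 62.2% of all genes. Against Control 1 was higher and 4 were lower, Pigr among them, 38.5% called beside 9.58% of all genes. The lower count against Control was 0 without R15 1 or R15 2. The higher count of 1, Exoc4, was 0 under 15 of 22 alternatives, among them leaving out Control 1, Control 3, Control 4, any single DDC library, R15 1 or R15 2.

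Lcn2 (ENSMUSG00000026822; mm10 chromosome 2, 32384633 to 32388252, minus strand), the siderophore binder, moved against Pigr and moved back. It stood at 54.5, 38.2, 101 and 72.7 FPKM in Control 1 to 4, at 465, 454, 548 and 440 FPKM in DDC 1 to 4, and at 74.1, 78.0 and 86.6 FPKM in R15 1 to 3. The 4 DDC libraries lay far above all others, and R15 fell inside the range of Control. The means were 66.6 ± 27.0 (SD, n = 4), 477 ± 48.3 (SD, n = 4) and 79.6 ± 6.38 FPKM (SD, n = 3). The ratio of means was 7.16 in DDC against Control, a log2 fold change of 2.90 ± 0.24 (limma adjusted p = 3.9e-06), and the fall from DDC to R15 was -2.56 ± 0.26 (limma adjusted p = 2.4e-05). R15 and Control differed by 0.34 ± 0.26 (limma adjusted p = 0.41; 95% interval from -0.23 to 0.91). By mean level Lcn2 went from place 785 in Control to place 65 in DDC and place 558 in R15.

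Neutrophils and hepatocytes can also make Lcn2. The neutrophil granule genes Camp, Mpo and Elane and the surface marker Ly6g were at 0 in 9 or 10 of the 11 libraries and reached at most 0.0783 FPKM. Ngp, also a granule gene, was at 0 in 4 libraries and reached at most 0.270 FPKM. The calprotectin genes S100a8 and S100a9 rose with Lcn2, at 0.684 ± 0.683 against 23.6 ± 5.80 FPKM for S100a8 (SD, n = 4 each; 3.92 ± 0.28) and 3.74 ± 0.27 for S100a9. Other neutrophil markers were also higher in DDC at low levels, with Csf3r at 0.519 ± 0.138 against 7.36 ± 1.54 FPKM, Cxcr2 at 0.0939 ± 0.0541 against 0.870 ± 0.223, Mmp8 at 0.00321 ± 0.00375 against 0.570 ± 0.0790 and Retnlg at 0.106 ± 0.0142 against 0.585 ± 0.255 (SD, n = 4 each). Of the 12 markers 4 were tested and 3 of these were higher and 0 lower in DDC, among them Csf3r, which reached the filter only through DDC. The whole list of 12 neutrophil markers summed to between 8.27 and 108 FPKM in Control, between 53.8 and 94.97 in DDC and between 4.999 and 16.6 in R15, and its part was not tested. Ltf, the lactoferrin gene, made up most of the sum of 108 FPKM in Control 3, at 104, and of 103 in Control 4, at 102. It stood between 0.697 and 36.9 FPKM in DDC, so the overlap of the sums rests on Ltf. Of 12 hepatocyte markers, 4 were higher and 4 lower in DDC than in Control. Alb, the albumin gene, made up most of their sum and went from 2773 ± 302 to 1028 ± 222 FPKM, while Fgb, a fibrinogen gene, went from 3.02 ± 1.84 to 16.3 ± 4.31 FPKM (SD, n = 4 each). The sums lay between 2984 and 3723 FPKM in Control, between 1145 and 1698 in DDC and between 1880 and 2564 in R15, and the part of hepatocytes in the Lcn2 values was not tested.

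Among 7 tested siderophore and iron genes, Lcn2 included, 4 were higher and 2 lower in DDC. That is 85.7% called, beside 65.4% of all genes, of which 33.5% were higher and 31.9% lower. Slc22a17, which encodes a proposed lipocalin 2 receptor, fell from 21.2 ± 2.90 to 11.2 ± 0.972 FPKM (-0.86 ± 0.11) and stood at 21.3 ± 3.27 FPKM in R15 (0.86 ± 0.12 against DDC). Bdh2, an enzyme tied to a mammalian siderophore, fell by 1.57 on the log2 scale, while the transferrin receptor gene Tfrc rose by 1.02 ± 0.10. Mmp9, whose protein binds lipocalin 2, had 0.433 ± 0.118 FPKM in Control and 1.75 ± 0.324 in DDC (SD, n = 4 each), but it reached the filter only through DDC, so its place among the 4 is no support for a rise.

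Slpi, the elastase inhibitor gene (ENSMUSG00000017002; mm10 chromosome 2, 164354070 to 164389095, minus strand), was the least abundant of the 7 on chow and in R15. It stood at 0.902, 0.557, 2.10 and 0.845 FPKM in Control 1 to 4, from 38 to 172 reads, at 11.6, 11.4, 16.9 and 11.7 FPKM in DDC 1 to 4, and at 1.91, 9.06 and 2.19 FPKM in R15 1 to 3. All DDC libraries lay above all Control and all R15 libraries, and R15 2 stood apart from the other 2 of its group. The ratio of means was 11.7 in DDC against Control, a log2 fold change of 2.76 ± 0.37 (limma adjusted p = 1.0e-04). R15 fell against DDC by 1.60 on the log2 scale (limma adjusted p = 0.0058), and this call was lost with the 5 libraries with pancreatic transcripts left out (-1.39, adjusted p = 0.094). The difference of R15 from Control was 1.16 ± 0.40 and did not pass (limma adjusted p = 0.096), and without R15 2 it was 0.58.

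Macrophages are a known source of Slpi, and their markers moved with it. All 12 markers were tested and 11 were higher in DDC, of which Marco and Gpnmb reached the filter only through DDC, with Lyz2, the macrophage lysozyme gene, at 30.5 ± 5.10 FPKM in Control and 762 ± 185 in DDC (SD, n = 4 each). Among R15 libraries the summed macrophage level was 799 FPKM in R15 2, 147 in R15 1 and 177 in R15 3, and R15 2 was also the library with Slpi at 9.06 FPKM. The part of macrophages in the Slpi values was not tested. The Slpi gene model spans the microRNA gene Mir7678, whose values ran from 0.481 to 63.6 FPKM, and with the counting's strand setting not given in the sources used here, their reads cannot be told apart.

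Wfdc2 (ENSMUSG00000017723; mm10 chromosome 2, 164562413 to 164568510, plus strand) lies 173317 bases from Slpi. It stood at 147, 69.5, 133 and 107 FPKM in Control 1 to 4, at 154, 160, 163 and 189 FPKM in DDC 1 to 4, and at 81.9, 84.6 and 86.0 FPKM in R15 1 to 3. The DDC libraries lay above all others, by a small margin over Control 1, and R15 fell inside the range of Control. The means were 114 ± 34.2 (SD, n = 4), 166 ± 15.2 (SD, n = 4) and 84.2 ± 2.07 FPKM (SD, n = 3). Wfdc2 rose by 0.59 ± 0.19 in DDC (limma adjusted p = 0.021), a call lost without DDC 4 (0.53, adjusted p = 0.056), and fell by 0.97 from DDC to R15 (limma adjusted p = 0.0024). Against Control, R15 stood at -0.38 ± 0.21 (limma adjusted p = 0.25), which passed without Control 2 at -0.60 (adjusted p = 0.013).

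Of 20 WAP genes in the table, 14 lie on chromosome 2, and 8 reached the filter. In DDC 4 of these 8 were higher than in Control and 1 was lower, a share called of 62.5% beside 65.4% of all genes. Wfdc18 on chromosome 11 had the largest rise of them, from 5.87 ± 6.12 to 128 ± 26.6 FPKM (SD, n = 4 each; 4.57 ± 0.55), and it fell again in R15 (-3.35 ± 0.60). Its neighbour Wfdc17 rose by 2.97 ± 0.49 and fell by 2.14 on the log2 scale, and in R15 2, with the high macrophage sum, it stood at 43.1 FPKM against 5.78 and 8.81 in the other R15 libraries. Both Wfdc17 calls were lost with the 5 libraries with pancreatic transcripts left out (adjusted p = 0.060 and 0.10). Wfdc15b went the other way, from 29.5 ± 3.81 in Control to 17.0 ± 1.28 in DDC and 16.8 ± 1.89 FPKM in R15 (-0.76 ± 0.10 and -0.77 ± 0.10 against Control). The second call was lost with those 5 libraries left out (adjusted p = 0.18). It was the only lower WAP gene in DDC, and without Control 1, Control 2 or Control 3 that count was 2. In R15 against DDC 5 of the 8 were lower and 1 higher, 75% called beside 62.2% of all genes. Against Control 1 was lower, 12.5% called beside 9.58% of all genes, or 3 without Control 2.

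Muc1, the membrane mucin (ENSMUSG00000042784; mm10 chromosome 3, 89229057 to 89233381, plus strand), did not pass in DDC but was lower in R15. It stood at 251, 159, 215 and 201 FPKM in Control 1 to 4, at 182, 177, 205 and 214 FPKM in DDC 1 to 4, and at 126, 133 and 133 FPKM in R15 1 to 3. DDC lay inside the range of Control, and the R15 libraries lay close together below all others. The means were 206 ± 38.0 (SD, n = 4), 195 ± 17.9 (SD, n = 4) and 131 ± 4.05 FPKM (SD, n = 3). DDC against Control gave -0.07 ± 0.12 (limma adjusted p = 0.64; 95% interval from -0.34 to 0.20), and the sign turned without Control 1 (0.030). R15 was lower than DDC by 0.57 ± 0.13 (limma adjusted p = 0.0038) and lower than Control by 0.63 ± 0.13 (limma adjusted p = 0.018). The call against Control was lost without R15 1 (adjusted p = 0.063), with only the groups compared (adjusted p = 0.083), with the replicate number as a block (adjusted p = 0.051) and with the 5 libraries with pancreatic transcripts left out (adjusted p = 0.20).

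**Figure D3:**
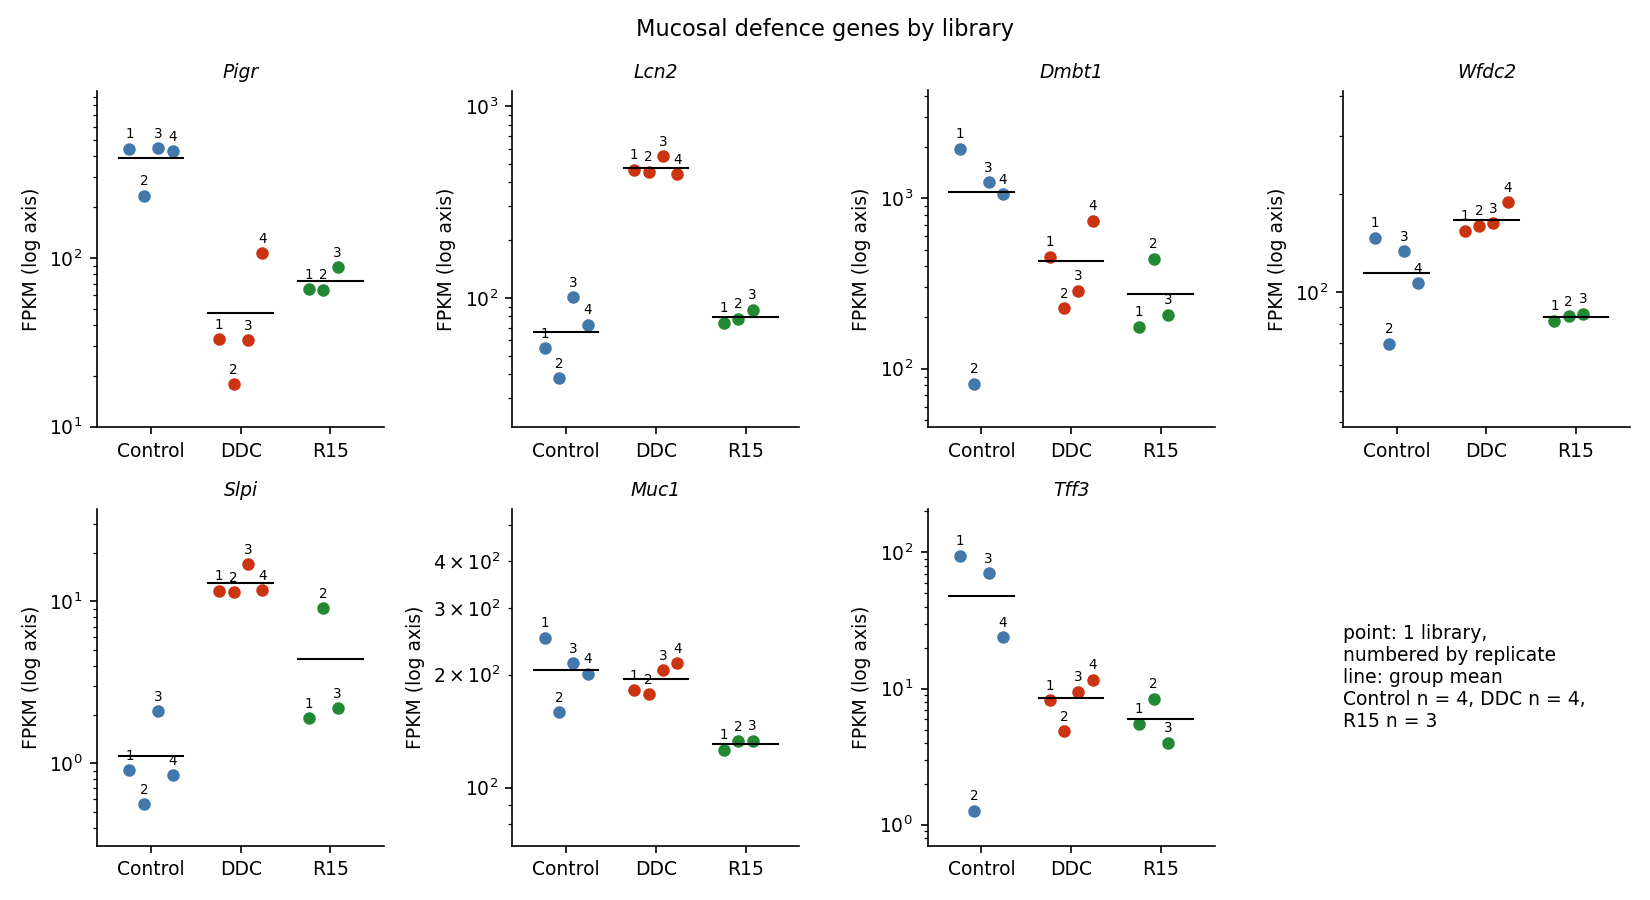
FPKM (log axis) of the 7 genes in each library, with points numbered by replicate and a line at the group mean. Control 2 is the lowest Control library in all 7 panels, the DDC libraries lie above all others for Lcn2, Slpi and Wfdc2, the DDC libraries of Pigr lie below Control but span the R15 values, and R15 is back in the range of Control for Lcn2 but not for Pigr or Muc1.

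Dmbt1, the bacterial scavenger gene (ENSMUSG00000047517; mm10 chromosome 7, 131032076 to 131121626, plus strand), had the highest mean level of the 7 on chow and varied over a 23.8-fold range there. It stood at 1946, 81.8, 1237 and 1058 FPKM in Control 1 to 4, at 454, 227, 286 and 736 FPKM in DDC 1 to 4, and at 176, 441 and 207 FPKM in R15 1 to 3. Control 2 lay below every other library of the series, and the other 3 Control libraries lay above every DDC and R15 library. No comparison passed with all libraries, at -0.82 ± 0.88 for DDC against Control (limma adjusted p = 0.43; 95% interval from -2.77 to 1.14), -1.42 ± 0.95 for R15 against Control (limma adjusted p = 0.34) and -0.60 ± 0.95 for R15 against DDC (limma adjusted p = 0.60). Without Control 2 the first was -1.83 (adjusted p = 0.0061) and the second -2.43 (adjusted p = 0.015). The whole Dmbt1 model lies inside a gene model of Fgfr2, which stood between 32.8 and 83.4 FPKM.

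Tff3, the trefoil peptide gene (ENSMUSG00000024029; mm10 chromosome 17, 31125306 to 31129646, minus strand), was likewise highest in Control 1 and lowest in Control 2, over a 75.1-fold range. It stood at 94.8, 1.26, 70.6 and 23.7 FPKM in Control 1 to 4, at 8.19, 4.84, 9.48 and 11.6 FPKM in DDC 1 to 4, and at 5.52, 8.40 and 4.01 FPKM in R15 1 to 3. Again Control 2, with 36 reads, was below all others and the rest of Control was above all DDC and R15 libraries. The log2 fold change was -1.44 ± 0.98 in DDC against Control (limma adjusted p = 0.22) and -1.88 ± 1.06 in R15 against Control (limma adjusted p = 0.26), and without Control 2 these were -2.59 (adjusted p = 9.4e-04) and -3.04 (adjusted p = 0.0065). R15 against DDC gave -0.44 ± 1.06 (limma adjusted p = 0.73). Control 3, with the gastric transcripts, and Control 1, with the most pancreatic ones, had the highest Tff3, while Control 4, with neither, had 23.7 FPKM. Control 2 held more pancreatic transcripts than Control 3 and had the lowest Tff3. The part of those tissues in the Tff3 values was not tested.

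Control 2 was the lowest of the 4 Control libraries for all 7 genes, where 19.1% of the 15264 genes tested were lowest there. The mean of the other 3 was 49.9 times its value for Tff3, 17.3 times for Dmbt1, 2.30 times for Slpi, 1.99 times for Lcn2, 1.88 times for Pigr, 1.86 times for Wfdc2 and 1.40 times for Muc1. A ratio at least as large as that of Tff3 was found for 37 genes tested and one as large as that of Muc1 for 9.11%. Spread within Control was above the usual for such levels. Its coefficient of variation was 89.7% for Tff3, 71.1% for Dmbt1, 40.5% for Lcn2, 26.5% for Pigr and 18.4% for Muc1, against a median of 7.51% over 3594 genes with a mean of at least 20 FPKM. In R15 it ran from 2.46% for Wfdc2, 3.09% for Muc1 and 8.01% for Lcn2 over 18.3% for Pigr to 37.3% for Tff3, 52.6% for Dmbt1 and 92.4% for Slpi. Krt19 was also lowest in Control 2, at 292 FPKM against 388 to 667 in the other Control libraries. Epcam was not, at 301 FPKM there against 259, 315 and 285 in Control 1, 3 and 4. The summed cholangiocyte markers were highest in Control 2, at 11114 FPKM. Spp1, between 6491 and 9773 FPKM over the 11 libraries, made up most of that sum, so it says little about the other markers.

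Of the mucin and mucus list, 13 of 24 genes were tested. In DDC 2 of them were lower than in Control and 0 higher, with a list median of -1.49, and without Control 2 the lower count was 5. The share called was 15.4%, beside 65.4% of all genes, and Muc13 and Muc6 reached the filter only through Control. The count of lower genes was 1 without DDC 2 or DDC 3. The list median was the value of Tff2, which ran from -2.17 to -0.031 with single libraries left out. In Control 3, with the gastric transcripts, Tff2 stood at 6346 FPKM, Agr2 at 253 and Muc6 at 302. The other Control libraries had 73.8 to 157, 0.913 to 1.75 and 0.263 to 2.22. Muc4 was highest in Control 1, at 10.8 FPKM against 8.20 in Control 3. Zg16 (-3.82 ± 1.98) was also in the pancreatic list. The part of those tissues in the list median was not tested. The membrane mucin genes Muc13 and Muc4 stood at 7.44 ± 10.5 and 7.24 ± 4.75 FPKM in Control and at 0.433 ± 0.339 and 1.22 ± 1.18 FPKM in DDC (SD, n = 4 each). Muc13 reached the filter only through Control, where it was high, so its call (-1.81 ± 0.68, limma adjusted p = 0.037) is no support for a fall. It was also lost without Control 4 (limma adjusted p = 0.072), DDC 1 (0.069), DDC 2 (0.084) or DDC 3 (0.070) and with a pseudocount of 5, no filter, only the groups compared or voom on reads. Muc4 did not pass at -1.62 ± 0.66 (limma adjusted p = 0.051) but passed without Control 2 (-2.37) or DDC 4 (-1.94) and with the replicate number as a block (limma adjusted p = 0.031). Muc13 stood at 23.0 FPKM in Control 3 and at most 4.29 in the other Control libraries. Creb3l1, a transcription factor gene of secretory cells, fell by 0.59 on the log2 scale (limma adjusted p = 0.016), a call lost with the 5 libraries with pancreatic transcripts left out (adjusted p = 0.074). Fcgbp, a mucus protein gene, gave -1.70 ± 0.77 (limma adjusted p = 0.075), and -2.53 without Control 2 (adjusted p = 0.0014). In R15 against DDC 1 of the 13 was lower, Muc1 itself, 7.69% called beside 62.2% of all genes. This count was 2 without Control 2 and 4 with only the groups compared. Against Control it was also Muc1 alone, 7.69% called beside 9.58% of all genes, with 6 lower without Control 2 and 0 without R15 1.

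Among 18 tested genes for secreted antimicrobial proteins, 9 were higher in DDC and 1 lower, with a list median of 0.66. That is 55.6% called, beside 65.4% of all genes, and 1 of the 9, Lyz1, reached the filter only through DDC. The lower gene was Cp, which encodes ceruloplasmin, and the lower count was 5 without Control 2. S100a8, S100a9, Lcn2, Lyz2 and Slpi had the smallest p among those higher. Ltf, which encodes the iron binder lactoferrin, was uneven on chow, at 15.5, 6.21, 104 and 102 FPKM in Control 1 to 4 and between 0.697 and 36.9 FPKM in DDC (-1.92 ± 1.13, limma adjusted p = 0.16, and 0.049 with the replicate number as a block). It was lowest in Control 2 within its group, as the 7 members were. Nos2, the inducible nitric oxide synthase gene, did not pass in DDC (0.58 ± 0.47) and fell from DDC to R15 (-1.67 ± 0.50, limma adjusted p = 0.015), a call lost without R15 1 (adjusted p = 0.068). In R15 against DDC 10 of the 18 were lower and 1 higher, 61.1% called beside 62.2% of all genes. The higher count was 0 without R15 1 or R15 3. Against Control 0 of the 18 passed in R15 with limma, beside 9.58% of all genes. Without Control 2, 4 of them were lower.

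Of the 21 receptors and factors of the IL-17, IL-22 and NF-kB zeta route, known to act on Lcn2 or Pigr in other epithelia, 11 were higher and 3 lower in DDC, with a list median of 0.60. The share called, 66.7%, was near the 65.4% of all genes. The receptor genes of IL-17 split. Il17ra rose from 6.11 ± 0.517 to 10.7 ± 0.571 FPKM (0.72 ± 0.09), while Il17rc fell by 0.46 and Il17re, the epithelial IL-17C receptor chain, by 0.83 on the log2 scale. Il17re was still lower in R15 than in Control (-0.45 ± 0.05, limma adjusted p = 0.0011), a call lost with the 5 libraries with pancreatic transcripts left out (adjusted p = 0.14). Nfkbiz, a nuclear co-factor of NF-kB needed for Lcn2 in mouse cells, rose from 16.8 ± 5.69 to 34.0 ± 2.07 FPKM (SD, n = 4 each; 1.02 ± 0.22), or by 0.47 with those 5 left out (limma adjusted p = 0.088). It differed by -0.51 ± 0.24 from DDC to R15 (limma adjusted p = 0.083). That difference passed without Control 4 (-0.51) or R15 2 (-0.73) and with only the groups compared (limma adjusted p = 0.041). Cebpb rose by 1.21 ± 0.15 and fell by 1.11 in R15, Stat3 rose by 0.60 ± 0.06, and the interferon gamma receptor gene Ifngr1 rose by 0.73 ± 0.05. Il22ra1 was low in all groups, at 1.25 ± 0.635 FPKM in Control and 0.892 ± 0.240 in DDC (-0.22 ± 0.19, limma adjusted p = 0.35).

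**Figure D4:**
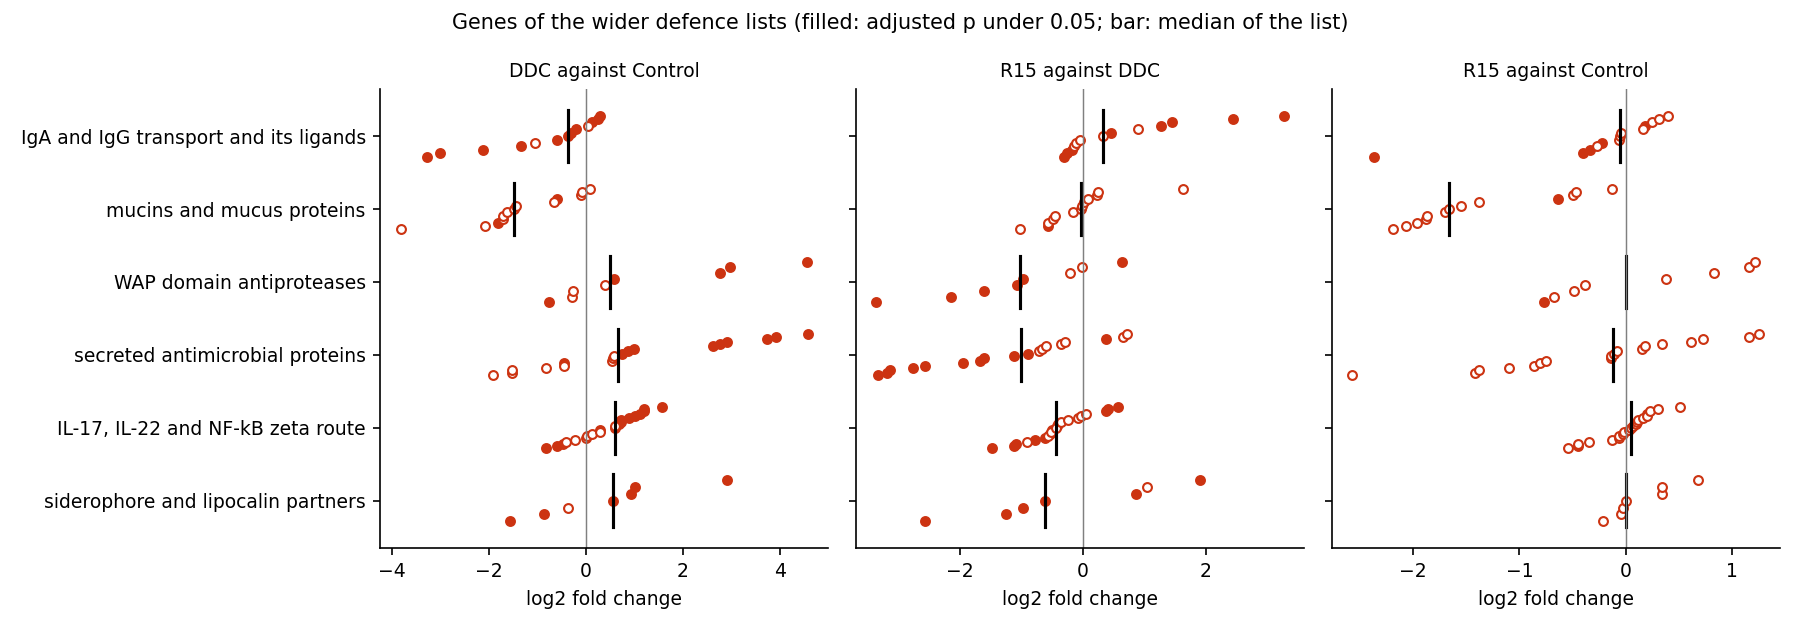
Log2 fold change of each tested gene in 6 wider lists for the 3 comparisons, filled where the adjusted p was under 0.05, with a bar at the list median. In DDC against Control the antimicrobial list reaches to 4.59 (Lyz2) with a median of 0.66. The mucin list has a median of -1.49, mostly with open points. That median is the value of Tff2, which stood at 6346 FPKM in Control 3, the library with the gastric transcripts.

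Counted over the 7 members, 3 were higher and 1 lower in DDC than in Control, where 65.4% of all 15264 genes tested were called, 33.5% higher and 31.9% lower (5112 higher and 4869 lower, or 4162 and 5518 with all libraries set to one FPKM sum). The median log2 fold change of the 7 was -0.07 against 0.00 for all genes, so the set as a whole had no common direction. In R15 against DDC 4 were lower and 0 higher, beside 28.8% and 33.4% of all genes and 62.2% in either direction (5099 higher and 4397 lower, or 6172 and 3305 with each library rescaled to one total, which moved the median of all genes by 0.10). In R15 against Control 2 were lower and 0 higher, where 2.72% of all genes were called lower, 6.87% higher and 9.58% in either direction (1048 higher and 415 lower, or 622 and 804 with median-of-ratios scaling and 594 and 468 with quantile normalization). The count of 2 was 5 without Control 2, 0 without R15 1 and 1 without R15 2, and it was 0 with the 5 libraries with pancreatic transcripts left out, when 10 genes in all passed. The comparisons share libraries, so their counts are not independent of each other. Libraries did not overlap for 4 members in DDC against Control, 3 higher beside 31.5% of all genes and 1 lower beside 29.8%, in all 61.3%. They did not overlap for 4 in R15 against DDC, all lower, beside 31.0% lower and 66.6% in all, and for 2 in R15 against Control, both lower, beside 6.30% lower and 21.3% in all.

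**Figure D5:**
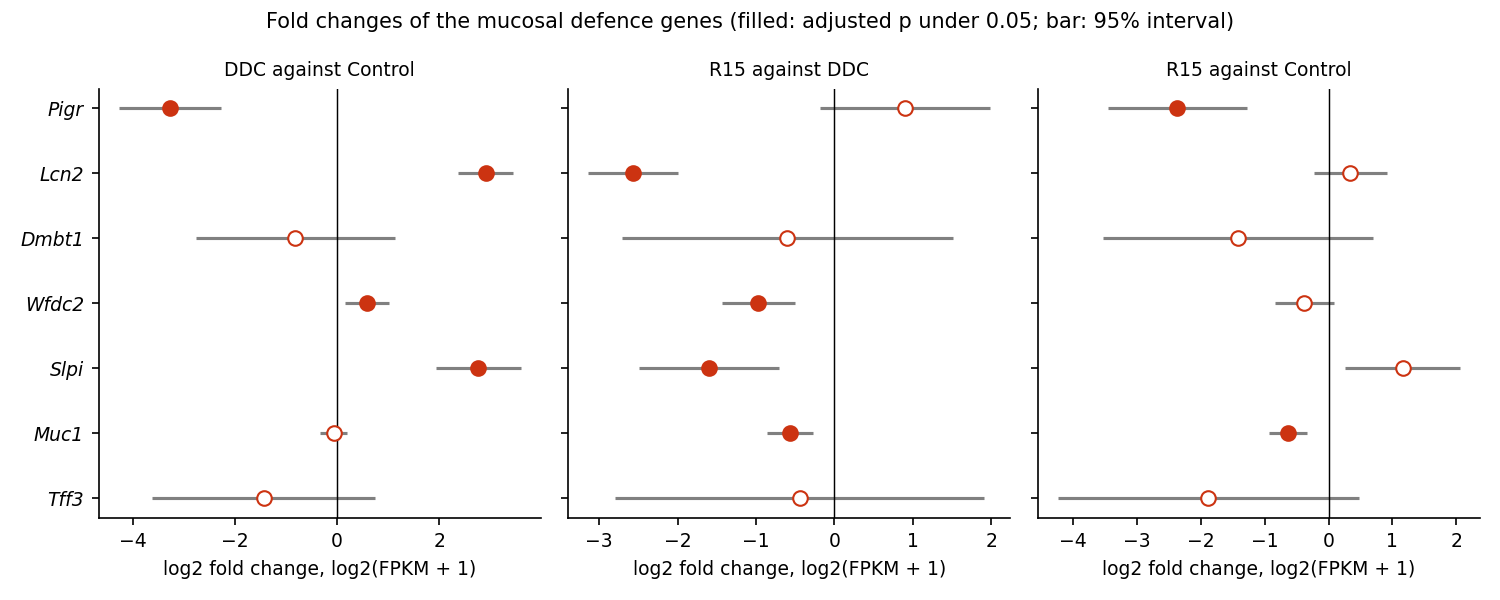
Log2 fold change on log2(FPKM + 1) of the 7 genes in the 3 comparisons with 95% intervals, filled where the adjusted p was under 0.05. Pigr lies at -3.27 in DDC and still at -2.37 in R15 against Control, Lcn2 at 2.90 and 0.34, and the intervals of Dmbt1 and Tff3 span 0 in all comparisons.

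The order of the 7 levels changed with the group. By mean FPKM the order in Control was Dmbt1, Pigr, Muc1, Wfdc2, Lcn2, Tff3 and Slpi, and only Muc1 and Wfdc2 were neighbours whose libraries did not overlap. In DDC the order was Lcn2, Dmbt1, Muc1, Wfdc2, Pigr, Slpi and Tff3, with overlap between Lcn2 and Dmbt1, between Muc1 and Wfdc2 and between Slpi and Tff3. In R15 it was Dmbt1, Muc1, Wfdc2, Lcn2, Pigr, Tff3 and Slpi, with overlap between Wfdc2 and Lcn2, between Lcn2 and Pigr and between Tff3 and Slpi. Together the 7 genes took between 0.201% and 1.49% of the reads of a Control library, between 0.329% and 0.692% in DDC and between 0.195% and 0.364% in R15.

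The genes most like each member were taken by Pearson r of log2(FPKM + 1) over the 11 libraries among 9120 other protein-coding genes with a mean of at least 5 FPKM. The libraries fall into 3 groups, and the genes of a library share its depth and cell mix. An r is therefore a description of these libraries. For Pigr the 3 most alike were Slc16a10 (r = 0.95), Prom1 (r = 0.95) and Ddrgk1 (r = 0.95). For Lcn2 they were Gucd1, Ppp1r14b and Dap, all with r = 0.99, and for Slpi Itpripl2 (r = 0.99), Dcun1d5 and Vim (both r = 0.98). Dmbt1 was most like Sord, Sult1c2 (both r = 0.96) and Aoc1 (r = 0.95), and Tff3 most like Lgals4 (r = 0.98), Cyp2c65 and Ckmt1 (both r = 0.97). Wfdc2 went with Pctp (r = 0.99), Rps6ka1 (r = 0.98) and Got1 (r = 0.97), and Muc1 with Esrra (r = 0.97), Rhpn2 and Cox7b (both r = 0.96). Lgals4, a galectin gene, had a mean of 75.5 FPKM on chow, 24.6 on the diet and 20.9 after it. The solute carrier gene Slc16a10 had means of 11.9, 4.40 and 6.61 FPKM in the same order.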

How the data were processed

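PolyA RNA was made into stranded mRNA libraries, per the labels' protocols, and the deposited values are FPKM for each gene in each library. The genome build was mm10, per the submitters' processing notes. For the aligner, the counter and the gene models, the tool was not given in the sources used here. Value columns left unused numbered 0. Whole reads were recovered from the deposited FPKM for 100% of nonzero values within 0.001, with the smallest length-corrected value of a library as 1 read. They served for depth and for 1 alternative test.

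A gene was tested if 3 or more libraries had an FPKM of 1 or above, which left 15264. Log2(FPKM + 1) of all 11 libraries went into limma 3.58.1 (R 4.3.3) with the 3 groups, a mean-variance trend and 2-sided p adjusted by Benjamini-Hochberg, with a threshold of 0.05. This scale understates changes of low genes. The fit was tested on simulated data first.

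The members, the 6 wider lists, the markers and the tests were chosen with earlier results of these data known. Named genes were the 7 members, the 3 most alike of each, the 5 list genes with the smallest p in DDC against Control and a fixed set that gives each list its sense. Coordinates are from the deposited table, strands from GENCODE M21, and promoter windows from RefSeq. Alternatives are given in the closing section.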

Additional observations from a re-analysis of the deposited data

Results flagged for a closer look

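In groups of 4 libraries, 3 values of the 7 genes stood apart, each with a gap to its nearest neighbour above Dixon's 95% critical value as a share of the range of its group. They were Pigr in Control 2 at 233.9 FPKM, the lowest of Control, Pigr in DDC 4 at 106.2 FPKM, the highest of DDC, and Slpi in DDC 3 at 16.94 FPKM, the highest of DDC. The gap was 0.925 of the range for the first, 0.8291 for the second and 0.942 for the third, and on the log2 scale the second was 0.662. Chance flags about 1 in 20 groups, and 14 groups were looked at. Groups of 3 were not looked at, so Slpi in R15 2 was not covered.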

How the results depend on the processing

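Over 22 alternatives, 445 of 462 values of the members kept their direction and their side of the threshold, 9 lost a call, 7 gained one and 1 changed sign. The sign change was Muc1 in DDC against Control, with a range of -0.19 to 0.030 when single libraries were left out. Counts of members called in DDC against Control and in R15 against DDC kept within 1.5 times under all alternatives, from 3 to 6 and from 3 to 5. For R15 against Control, the 2 members called became 0 to 5 with single libraries left out, 1 with only the groups compared, 1 with the replicate block and 0 without the 5 libraries that held pancreatic transcripts. The 1463 genes called there became 685 to 2186 with single libraries left out, 317 with only the groups compared, 693 with the replicate block and 10 without those 5, where 1 Control library remained and was assumed to vary like the other groups. That count fell by more than 1.5 times without Control 1 (819), Control 3 (938), DDC 2 (950), R15 1 (685) or R15 2 (749). Igha in R15 against Control ranged from -0.31 to 0.87 with single libraries left out, turning to -0.12 without Control 2 and -0.31 without R15 2, and was -0.014 without those 5. Of the other genes named, 953 of 985 values kept their call, and of the list counts 726 of 792 stayed within 1.5 times; the cause was not tested. The replicate number is only a number here, since not every same-numbered pair correlated above 0.1 in its deviations. For numbers 1 to 4 Control and DDC correlated at 0.30, 0.18, -0.016 and 0.25, and for 1 to 3 Control and R15 at -0.18, -0.28 and 0.043 and DDC and R15 at -0.16, -0.041 and -0.27. The replicate block gave 9670 genes in DDC against Control and 9056 in R15 against DDC. Limma voom on whole reads called 4, 4 and 2 members in the 3 comparisons in the order of the report. Slpi in Control rested on as few as 38 reads and Tff3 in Control 2 on 36, which limits their precision.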

Other observations

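Other epithelial defence genes were uneven between Control libraries in ways that no label gives. Agr2, a chaperone of mucin folding, stood at 253 FPKM in Control 3 and between 0.913 and 1.75 in the other Control libraries, and Tff1 at 1275 FPKM in Control 3 and at most 3.26 in the other 10 libraries. Control 3 was the library with the gastric transcripts, and Tff1 is itself one of that gastric list. The part of stomach tissue in the Agr2 and Tff1 values was not tested. Duox2, an epithelial oxidase, averaged 29.8 ± 24.4 FPKM on chow and 8.30 ± 8.15 FPKM on the DDC diet (SD, n = 4 each), with no call in DDC against Control (limma adjusted p = 0.17).

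Antimicrobial lectins of the gut were near the floor. Reg3b and Reg3g were at most 1.68 FPKM in every library except Reg3b in R15 1 (8.16 FPKM) and in Control 3 (4.18 FPKM) and Reg3g in Control 3 (3.56 FPKM). Saa3, an acute-phase gene, was at most 0.869 FPKM in all 11 libraries. These genes did not reach the filter and were not tested.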
